A study of Arabidopsis thaliana with 6 samples.

Results

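The genes described here are 47 Arabidopsis thaliana transcripts that were already low after 3 hr at 4 °C and were still low, at about the same level, after 24 hr. They were chosen by their measured values, from 13355 genes that each had a probe set annotated to 1 gene. With L as the log2 signal after values under 66 were set to 66, a member had L at 3 hr and L at 24 hr each at least 1 below L at 0 hr, and L at 24 hr within 1 of L at 3 hr. Each condition had to hold in both genotypes, and the auxin genes IAA29 and GH3.3, which met them too, were set aside. The changes over time are therefore a description of how the genes were picked, with no test.

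The study hybridised RNA of whole seedlings aged 2 weeks to 6 ATH1 arrays. The groups were lcbk1-2 at 0 hr (22 °C) and after 3 hr and 24 hr at 4 °C, and the wild type Columbia-0 at the same 3 times. The sample titles call lcbk1-2 a mutant, and it is taken here as a knock-out in the Columbia-0 ecotype. All seedlings grew with 2% sucrose under 16 hr of light and 8 hr of dark at 100 µmol m-2 s-1. There was 1 array for each genotype and time, no seedlings held at 22 °C were measured at 3 hr or 24 hr, and whether plants were pooled for an array is not stated. Cold therefore cannot be told apart from time of day at 3 hr, nor from 1 further day of age at 24 hr.

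LCBK1 is a kinase that phosphorylates long-chain bases, the backbones of sphingolipids; its own transcript was not analysed here, so the genotype labels were not checked on it. When a plant is chilled, growth slows within hours, and many transcripts that serve growth, hormone response and daytime metabolism are turned down while cold-protective transcripts are made. How fast a transcript can disappear after such a shift depends on its stability. In whole seedlings, a lower signal can come from fewer cells that express the gene or from less RNA per cell, and these cannot be told apart.

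The arrays had median signals of 144.3 to 171.4 over all probe sets, and 63.6% to 66.1% of probe sets lay above 66. Of the seedling markers, the Rubisco activase gene RCA, a green tissue gene, read 24500 to 32750, and the root gene PYK10 read 16738 to 22106 on the 6 arrays. Other markers were lower at 24 hr: the light-harvesting gene LHCB4.2 read 26202, 20650 and 13054 at 0, 3 and 24 hr in lcbk1-2 and 29747, 19281 and 15026 in Columbia-0. The median log2 change at 24 hr was -0.51 over the 2 green tissue markers tested and -0.52 over the 4 root markers tested, among which AT3G49960 stood at -0.54 in lcbk1-2 and -2.61 in Columbia-0. Whether the makeup of the seedlings has a part in the changes of the 47 genes was not tested. Of 7 reproductive markers 0 were on a named probe set, so their absence was not checked. The precision here is limited by the number of arrays, and there are no replicates.

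Of the 15653 features that could be tested, 273 (1.74%) were at least 2-fold lower than 0 hr after 3 hr in both genotypes, and 1472 (9.4%) were so after 24 hr. By its choice, each of the 47 genes is in both counts. All thresholds together were met by 113 features (0.722%), of which 63 had no gene name, 1 was annotated to several genes and 49 were single genes, the 47 with IAA29 and GH3.3. Seen the other way, 122 single genes were at least 2-fold lower at 3 hr in both genotypes. By 24 hr, 39 of these were at least another 2-fold lower in both, 2 were at least 2-fold higher than at 3 hr in both, 62 were within 2-fold of 3 hr in both, and 19 differed between the genotypes in this. The 2-fold lower state at 24 hr was kept in both genotypes by 49 of those 62.

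**Figure D1:**
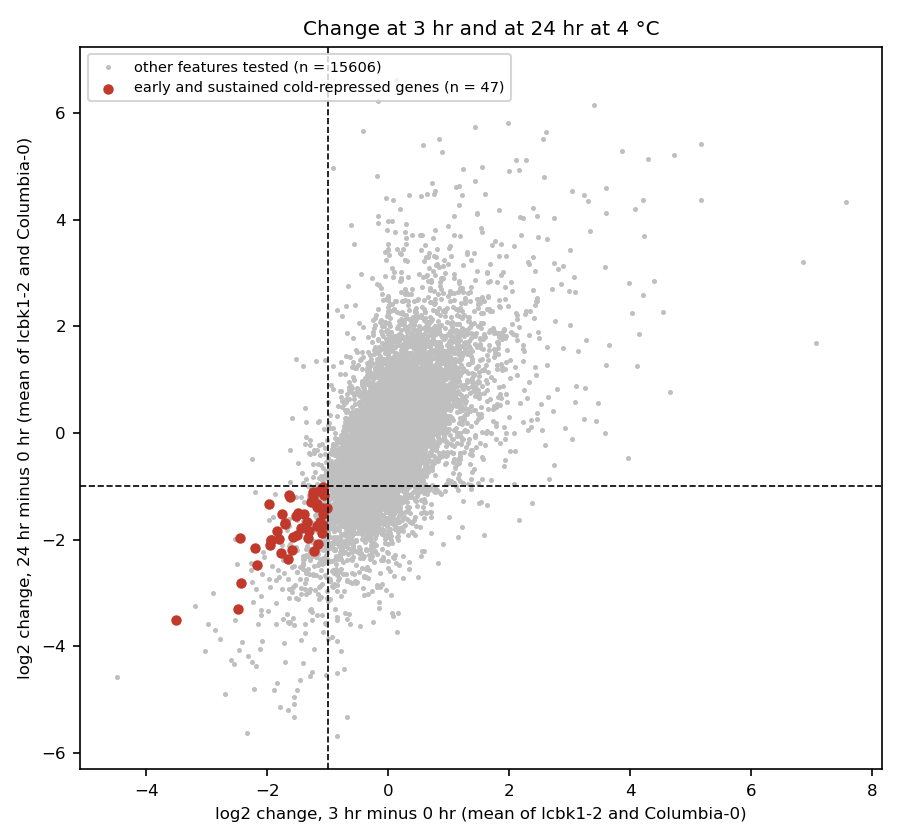
Log2 change at 3 hr (horizontal) and at 24 hr (vertical) against 0 hr, each the mean of lcbk1-2 and Columbia-0, for all 15653 features tested; red points are the 47 genes and dashed lines mark a change of -1. The red points run from -1.01 to -3.51 at 3 hr along the diagonal, as the rule sets them, while many grey points lie far lower at 24 hr than at 3 hr.

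The median gene of the 47 was 2.89-fold below 0 hr at 3 hr in lcbk1-2 (log2 change -1.53) and 2.81-fold below in Columbia-0 (-1.49). At 24 hr the medians were -1.70 in lcbk1-2 and -1.79 in Columbia-0. Over all features tested, the medians at 24 hr were -0.10 in lcbk1-2 and -0.11 in Columbia-0. Single changes at 3 hr ran from -3.32 to -1.01 in lcbk1-2 and from -3.71 to -1.01 in Columbia-0. Before cold the genes spanned a wide range of signal: 13 averaged over 1000 at 0 hr, and 12 averaged under 250. By 24 hr, 15 of the 47 were below the floor of 66 in both genotypes, so for these the size of the change is a lower limit.

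**Figure D2:**
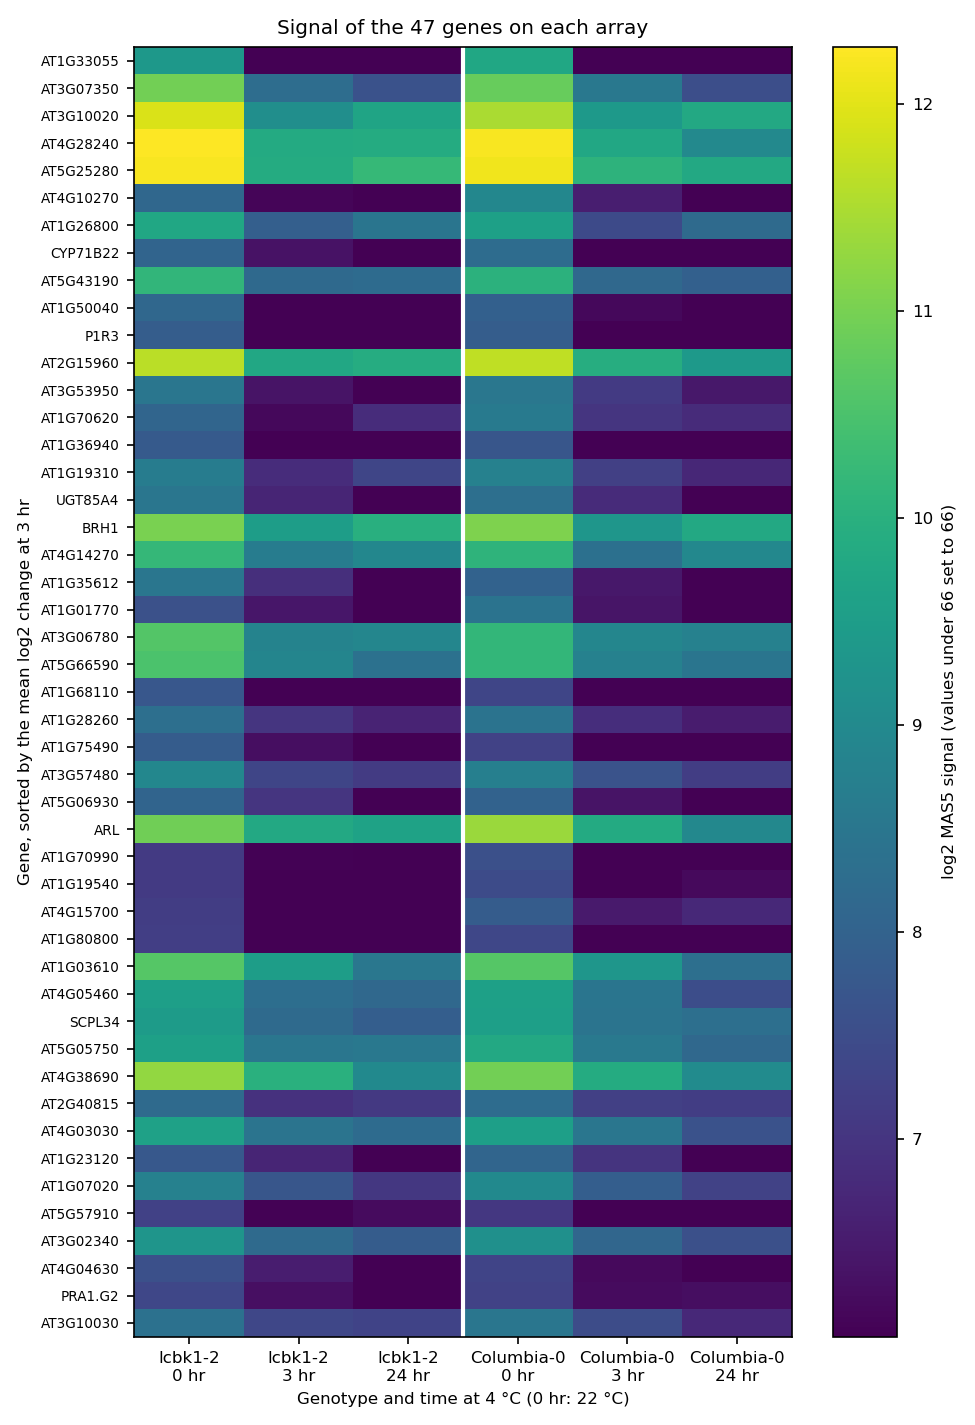
Log2 MAS5 signal of the 47 genes (rows, sorted by mean change at 3 hr) on the 6 arrays (columns: lcbk1-2, then Columbia-0, each at 0, 3 and 24 hr), with values under 66 set to 66. In every row the 0 hr column is the brightest of its genotype, and the 3 hr and 24 hr columns are within 2-fold of each other, as the rule requires.

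AT1G33055 had the largest measured change at 3 hr, a lower limit since it reached the floor. It is on the low-oxygen list, which holds genes known to be induced when oxygen is short. Its signal in lcbk1-2 was 657 at 0 hr, 61.1 at 3 hr and 18.7 at 24 hr. In Columbia-0 it was 871, 66.6 and 26.2 at the same times. It thus went to the floor within 3 hr in lcbk1-2 and to its edge in Columbia-0, and at 24 hr it was at least 11.5-fold below 0 hr in the mean of both. AT3G10020, also of the low-oxygen list, was far brighter, at 3912, 562 and 824 in lcbk1-2 and 2870, 667 and 898 in Columbia-0 for 0, 3 and 24 hr. Unlike AT1G33055 it was lowest at 3 hr in each genotype, and part of the signal was back at 24 hr (mean log2 change -2.45 at 3 hr and -1.96 at 24 hr). AT4G10270, a gene of the wound-responsive protein family and the third member on the list, read 278, 70.5 and 43.5 in lcbk1-2 and 488, 94.7 and 28.0 in Columbia-0.

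The low-oxygen list held 44 loci, of which 18 were tested. Of these, 7 (38.9%) were at least 2-fold lower at 3 hr in both genotypes and 3 (16.7%) at least 2-fold higher, beside 1.74% and 3.22% of all features. At 24 hr, 5 (27.8%) were lower and 3 (16.7%) higher, beside 9.4% and 7.65%. The 3 loci of the list that are among the 47 are in both lower counts by their choice. The list was also chosen with earlier results of these data known, so no excess is read from these shares. The list's median log2 change was -0.58 at 3 hr and -0.41 at 24 hr, with members on either side of 0. PDC2, the pyruvate decarboxylase of ethanol fermentation, was among those higher at 24 hr, at 284, 404 and 4191 in lcbk1-2 and 361, 533 and 4184 in Columbia-0. AT3G27220 of the list just missed the rule, with a change of -0.98 at 24 hr in lcbk1-2. AT4G33560 missed it with -0.98 at both times in lcbk1-2, where it read 130, 42.1 and 32.7. Both of its cold values there were under the floor, so this size is a lower limit. A gene so dim at 0 hr could not meet the rule, however low it went. The same holds for HRA1 of the list, which read 104 in lcbk1-2 and 125 in Columbia-0 at 0 hr. AT3G10020 and AT3G10030 are next to each other in the gene order of the RefSeq table, the only such pair among the 47. AT3G10030 read 332, 165 and 159 in lcbk1-2 and 362, 180 and 108 in Columbia-0, a much smaller change than that of its neighbour.

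AT4G28240, a further gene of the wound-responsive family, had the highest 0 hr signal of the 47. It read 4966, 930 and 937 in lcbk1-2, and 4787, 877 and 506 in Columbia-0. The genotypes were alike at 0 hr and 3 hr, and at 24 hr the transcript stayed level in lcbk1-2 and was lower again in Columbia-0. AT5G25280, for a serine-rich protein, was nearly as bright, at 4740, 948 and 1191 in lcbk1-2 and 4540, 1079 and 896 in Columbia-0. AT2G15960, to which no role is given here, read 3191, 881 and 966 in lcbk1-2 and 3264, 972 and 682 in Columbia-0. These 3 bright genes were 3.49-fold to 5.40-fold lower at 3 hr in the mean of both genotypes. From 3 hr to 24 hr each was level or higher in lcbk1-2 and lower in Columbia-0, by -0.79 on the log2 scale for AT4G28240, -0.51 for AT2G15960 and -0.27 for AT5G25280. AT3G10020, brighter at 0 hr than AT2G15960, was instead higher at 24 hr than at 3 hr in both, by 0.55 in lcbk1-2 and 0.43 in Columbia-0. These contrasts rest on 1 array for each genotype and time and were not tested.

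**Figure D3:**
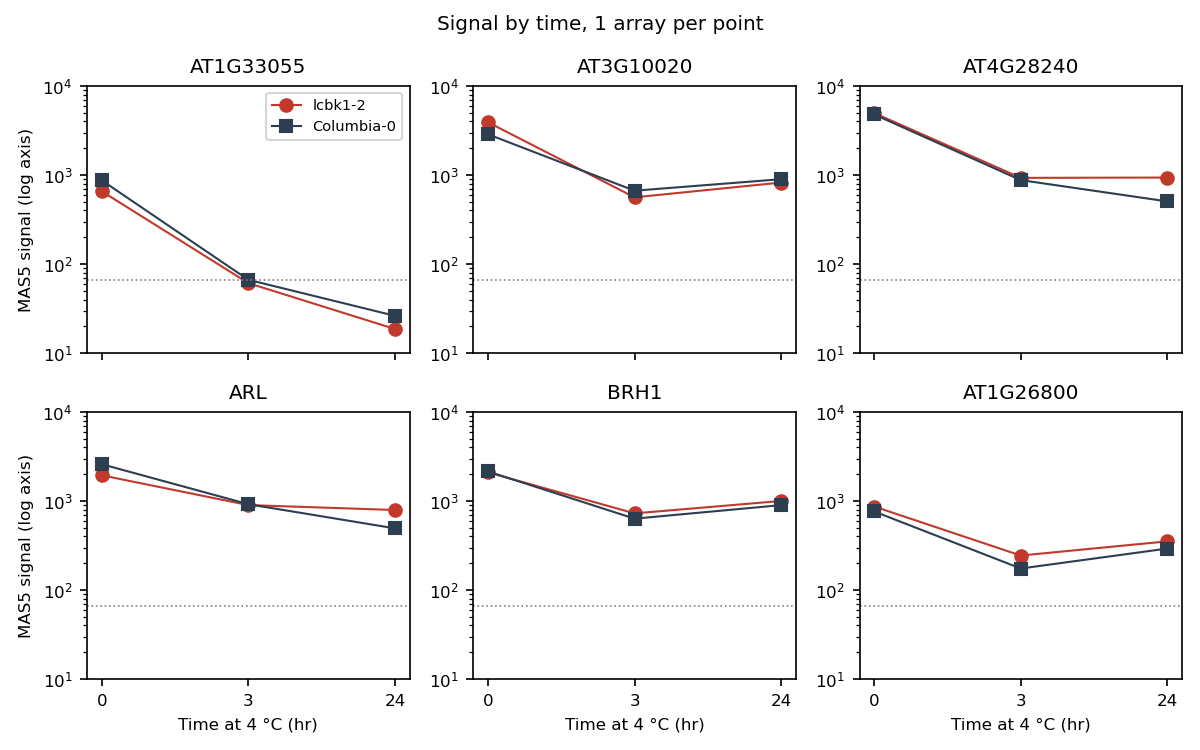
MAS5 signal (log axis) by time at 4 °C for AT1G33055, AT3G10020, AT4G28240, ARL, BRH1 and AT1G26800; each point is 1 array, circles are lcbk1-2, squares are Columbia-0, and the dotted line is the floor of 66. AT3G10020, BRH1 and AT1G26800 are lowest at 3 hr in both genotypes, while ARL and AT4G28240 are lower at 24 hr in Columbia-0 than in lcbk1-2.

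Growth and hormone genes among the 47 included ARL and BRH1. ARL (ARGOS-like), which promotes cell expansion in organs, read 1944, 900 and 792 in lcbk1-2 and 2589, 920 and 493 in Columbia-0. Of the 26 genes above the floor on all 6 arrays, its 24 hr change differed most between the genotypes, by 1.098 on the log2 scale, with 1 array on each side and no test. BRH1, a RING-H2 gene that responds to brassinosteroid, read 2096, 726 and 1002 in lcbk1-2 and 2147, 634 and 899 in Columbia-0. It was lowest at 3 hr in both. IAA29, an auxin-induced repressor, and GH3.3, an enzyme that conjugates auxin, met the same thresholds. IAA29 read 700.1, 55.7 and 41.1 in lcbk1-2 and 554, 70.4 and 44.9 in Columbia-0, and GH3.3 read 1066, 176 and 340 in lcbk1-2 and 1512, 275 and 299 in Columbia-0. The auxin list of 23 loci had 4 tested, of which 3 were at least 2-fold lower at 3 hr in both genotypes and 4 at 24 hr, beside 1.74% and 9.4% of all features. IAA29 and GH3.3 are in both of these counts since they met the thresholds. Of 3 tested targets of shade and warmth signalling, among them IAA29 again, 3 were lower at both times and 0 are in the 47. Both lists were chosen with earlier results of these data known, so no excess is read from them.

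Genes of families linked to protein turnover, grouped after the members were known, are BRH1 with the RING-type genes AT1G26800, AT1G19310 and AT3G02340, and the F-box genes AT4G05460, AT5G43190 and AT4G03030. Except for BRH1 they are placed by family only, and their function was not tested. RING-type and F-box proteins serve ubiquitin ligases, which mark proteins for destruction. Both families are large, and their share among all features was not counted, so no excess is read from them. AT1G26800 read 867, 244 and 352 in lcbk1-2 and 763, 175 and 292 in Columbia-0. Of the 26 genes above the floor on all 6 arrays it had the largest return from 3 hr to 24 hr, 0.64 on the log2 scale in the mean of both genotypes. AT5G43190 was nearly level after 3 hr in both genotypes, at 1133, 288 and 301 in lcbk1-2 and 1058, 285 and 249 in Columbia-0. AT4G05460, AT4G03030 and AT3G02340 had smaller changes at 3 hr (-1.19, -1.12 and -1.08) and lower values at 24 hr (-1.74, -1.68 and -1.52). AT1G19310 went opposite ways after 3 hr, with 406, 114 and 162 in lcbk1-2 and 442, 150 and 106 in Columbia-0.

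The enzyme and membrane traffic families below each had 1 tested gene at least 2-fold lower at 3 hr in both genotypes. UGT85A4, a glucosyltransferase, read 358, 103 and 26.2 in lcbk1-2 and 321, 112 and 59.4 in Columbia-0. Of the 4 UGT85A genes tested it was the 1 at least 2-fold lower at 3 hr in both genotypes, and UGT85A2 was lower only by 24 hr, with 1209, 1175 and 420 in lcbk1-2 and 1068, 709 and 353 in Columbia-0. CYP71B22, a cytochrome P450, read 264, 81.5 and 25.04 in lcbk1-2 and 304, 63.2 and 60.6 in Columbia-0, and was the 1 of 12 tested CYP71B genes that was lower at 3 hr in both. CYP71B26 of the same family was higher, at 434, 841 and 973 in lcbk1-2 and 388, 773 and 821 in Columbia-0. CYP71B23 was lower by 24 hr, at 398, 165 and 67.0 in lcbk1-2 and 381, 291 and 134 in Columbia-0. SCPL34, a serine carboxypeptidase-like gene, read 703, 296 and 242 in lcbk1-2 and 762, 350 and 321 in Columbia-0, 1 of 4 tested SCPL genes. PRA1.G2, of the prenylated RAB acceptors of membrane traffic, was 1 of 8 tested PRA1 genes, with 167, 78.7 and 45.9 in lcbk1-2 and 155, 74.4 and 76.9 in Columbia-0. These families were looked up after the members were known, so at least 1 such gene in each was given beforehand, beside 1.74% of all features. At 24 hr, 2 tested genes of each family were at least 2-fold lower in both genotypes, beside 9.4% of all features.

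AT3G53950, of the glyoxal oxidase family, read 358, 82.3 and 51.5 in lcbk1-2 and 365, 137 and 86.9 in Columbia-0. AT4G38690, of a phospholipase C-like family, was bright at 0 hr (2450 in lcbk1-2 and 1971 in Columbia-0) and was lower at each later time: it had 1027 and 515 at 3 hr and 24 hr in lcbk1-2 and 944 and 527 in Columbia-0. With AT1G03610 (1591, 725 and 367 in lcbk1-2 and 1578, 637 and 321 in Columbia-0) it lies at the edge of the rule, since both were nearly another 2-fold lower at 24 hr. AT1G23120 (217, 104 and 11.1 in lcbk1-2 and 272, 126 and 24.5 in Columbia-0) and AT1G07020 (437, 208 and 133 in lcbk1-2 and 517, 242 and 156 in Columbia-0), to which no role is given here, were also lower at 24 hr than at 3 hr. Among regulators of nucleic acids, AT1G75490, a transcription factor gene of the DREB2 group, read 231, 77.9 and 19.2 in lcbk1-2 and 154, 30.1 and 43.7 in Columbia-0. The zinc finger gene AT3G57480 stood at -1.34 at 3 hr and -1.67 at 24 hr. The chaperone gene AT5G05750, of the DnaJ type, stood at -1.17 and -1.33, and AT1G68110, of an endocytic adaptor family, was at the floor on all 4 cold arrays, at least 2.83-fold lower.

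AT3G07350 had the largest mean change at both times among the 26 genes above the floor on all 6 arrays, at 1966, 308 and 197 in lcbk1-2 and 1811, 370 and 187 in Columbia-0. Of the other genes to which no role is given here, AT1G50040 read 282, 40.3 and 15.9 in lcbk1-2 and 248, 72.5 and 4.33 in Columbia-0. P1R3 was at the floor on all 4 cold arrays after 235 in lcbk1-2 and 236 in Columbia-0 at 0 hr, at least 3.57-fold lower. AT1G35612 read 358, 118 and 48.4 in lcbk1-2 and 257, 87.1 and 46.4 in Columbia-0. The 22 genes in no role group had a median log2 change of -1.52 at 3 hr and -1.78 at 24 hr, beside -1.65 and -1.68 for the RING-type and F-box genes and -1.25 and -2.08 for the enzyme families.

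Between 3 hr and 24 hr, 21 of the 47 genes went lower in both genotypes and 4 higher in both, 10 went opposite ways, 4 were at the floor at both cold times in both, and in 8 a genotype was at the floor at both cold times. The 4 that were higher in both were AT1G26800, AT3G10020, BRH1 and AT4G14270; the last read 1165, 408 and 484 in lcbk1-2 and 1098, 327 and 499 in Columbia-0. The median change over this interval was -0.06 in lcbk1-2 and -0.27 in Columbia-0, where all features tested had -0.10 and -0.06. It depends on the floor: with no floor the medians were -0.28 in lcbk1-2 and -0.48 in Columbia-0. With quantile normalization the medians were smaller, at 0 in lcbk1-2 and -0.17 in Columbia-0, and with median scaling 0 and -0.12. At 3 hr, the 26 genes above the floor on all 6 arrays showed a median of 85.6% of their 24 hr log2 change, from 55.3% to 147%. Of 7 tested genes of the sugar starvation list, 4 were at least 2-fold lower at 3 hr in both genotypes and 7 at 24 hr. Over all features the shares were 1.74% and 9.4%. The list had medians of -1.42 and -3.32, and 0 of the 7 are in the 47. It was chosen with earlier results of these data known, so no excess is read from it. AKINBETA1, which encodes part of the SnRK1 kinase complex, read 2733, 433 and 137 in lcbk1-2 and 2476, 452 and 122 in Columbia-0.

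The thresholds cut through a continuum. Of the 47 genes, 20 lie within 0.1 of a threshold, and 31 other single genes miss it by under 0.1. AT4G38690 is the closest inside, with a change from 3 hr to 24 hr of -0.996 in lcbk1-2, and PRA1.G2, AT5G57910 and AT3G10030 have a change of -1.01 in at least 1 comparison. Just outside are AT2G35470, with -0.9998 at 3 hr in Columbia-0, AT3G23550, with -0.9996 at 3 hr in lcbk1-2, and AT5G01740, with -1.004 from 3 hr to 24 hr in Columbia-0. None of the 47 had a second probe set. The gene AT2G30600 had 2, and its dimmer one met the thresholds while the brighter one, which represents the gene, did not. The dimmer one read 588, 153 and 253 in lcbk1-2 and 687, 184 and 310 in Columbia-0, and the brighter one 1061, 462 and 523 in lcbk1-2 and 1108, 525 and 699 in Columbia-0.

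The rule did not use the difference of lcbk1-2 from Columbia-0 directly, which asks whether loss of the kinase alters these transcripts. It did require each change in both genotypes, so genes that met it in 1 genotype only were left out beforehand. Applied to 1 genotype alone, the rule took 126 genes in lcbk1-2 and 120 in Columbia-0. Small differences between the genotypes at 3 hr and 24 hr are therefore partly built in by the choice. In a limma fit with genotype and time as additive terms, 2 of 15653 features passed an adjusted p of 0.05 (0.0128%), and 0 of the 47 genes did. At an unadjusted p under 0.05 there were 4 of the 47 (8.51%), 3 lower and 1 higher in lcbk1-2, beside 1294 features in all (8.27%). The share in the 47 was thus near that of all features. The median difference over the 47 was 0.03 on the log2 scale, beside 0.01 over all features. Of the 47, 30 were above 0 and 17 below, where 48.7% of all features were below 0. Without the 24 hr arrays, 23 were above 0 and 24 below. At least 2-fold apart were 0 of the 47 genes at 0 hr, 0 at 3 hr and 0 at 24 hr, beside 0.677%, 0.722% and 0.811% of all features, on 1 array each with no test. At these shares under 1 of 47 would be so, and 5 genes at 3 hr and 15 at 24 hr were at the floor in both genotypes and could not differ. Lower in lcbk1-2 at all 3 times were 5 genes, beside 13.3% of all features, and higher at all 3 times were 7, beside 15.1%. The fit has 2 residual degrees of freedom and no replicates, so a missing call does not show that the genotypes are alike.

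The largest difference was that of AT4G15700, a gene of the glutaredoxin family, small redox proteins. It read 144, 25.7 and 47.8 in lcbk1-2 and 231, 90.8 and 109 in Columbia-0, lower in lcbk1-2 at each of the 3 times (log2 difference -0.62, SE 0.12; limma, adjusted p = 0.377). In lcbk1-2 it was under the floor at 3 hr and 24 hr, so the difference is a lower limit in size, and with no floor it was -1.23 (limma, adjusted p = 0.820, with 0.349 to 0.845 over the alternatives that tested it). Neighbouring genes of its cluster are close in sequence, and the probes may not keep them fully apart. AT4G15680 read 213, 103 and 102 in lcbk1-2 and 624, 636 and 191 in Columbia-0, and AT4G15690 read 129, 74.1 and 6.82 in lcbk1-2 and 201, 82.0 and 57.6 in Columbia-0. Of the 4 tested genes of this cluster, 1 was at least 2-fold lower at 3 hr in both genotypes, beside 1.74% of all features. That gene is AT4G15700 itself, so the count was given beforehand. At 24 hr 2 were lower, AT4G15700 among them, beside 9.4% of all features.

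The next largest differences did not pass either. AT1G70620 (271, 72.3 and 114 in lcbk1-2, and 390, 129 and 113 in Columbia-0) differed by -0.45 (SE 0.18, adjusted p = 0.601 in limma), a difference present at 0 hr and 3 hr and not at 24 hr. AT4G10270 differed by -0.41 (adjusted p = 0.607), AT3G53950 by -0.39 (adjusted p = 0.604) and AT4G28240 by 0.34 (adjusted p = 0.660, limma). At 24 hr AT4G10270 was under the floor in both genotypes (43.5 in lcbk1-2 and 28.0 in Columbia-0). Its difference was -0.20 with no floor, and ran from -0.62 to -0.20 over the alternatives. AT1G26800, the 1 gene higher in lcbk1-2 at an unadjusted p under 0.05, differed by 0.31 (adjusted p = 0.583, limma). For AT4G28240 nearly all of it came from 24 hr, where lcbk1-2 was 0.89 higher on the log2 scale.

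**Figure D4:**
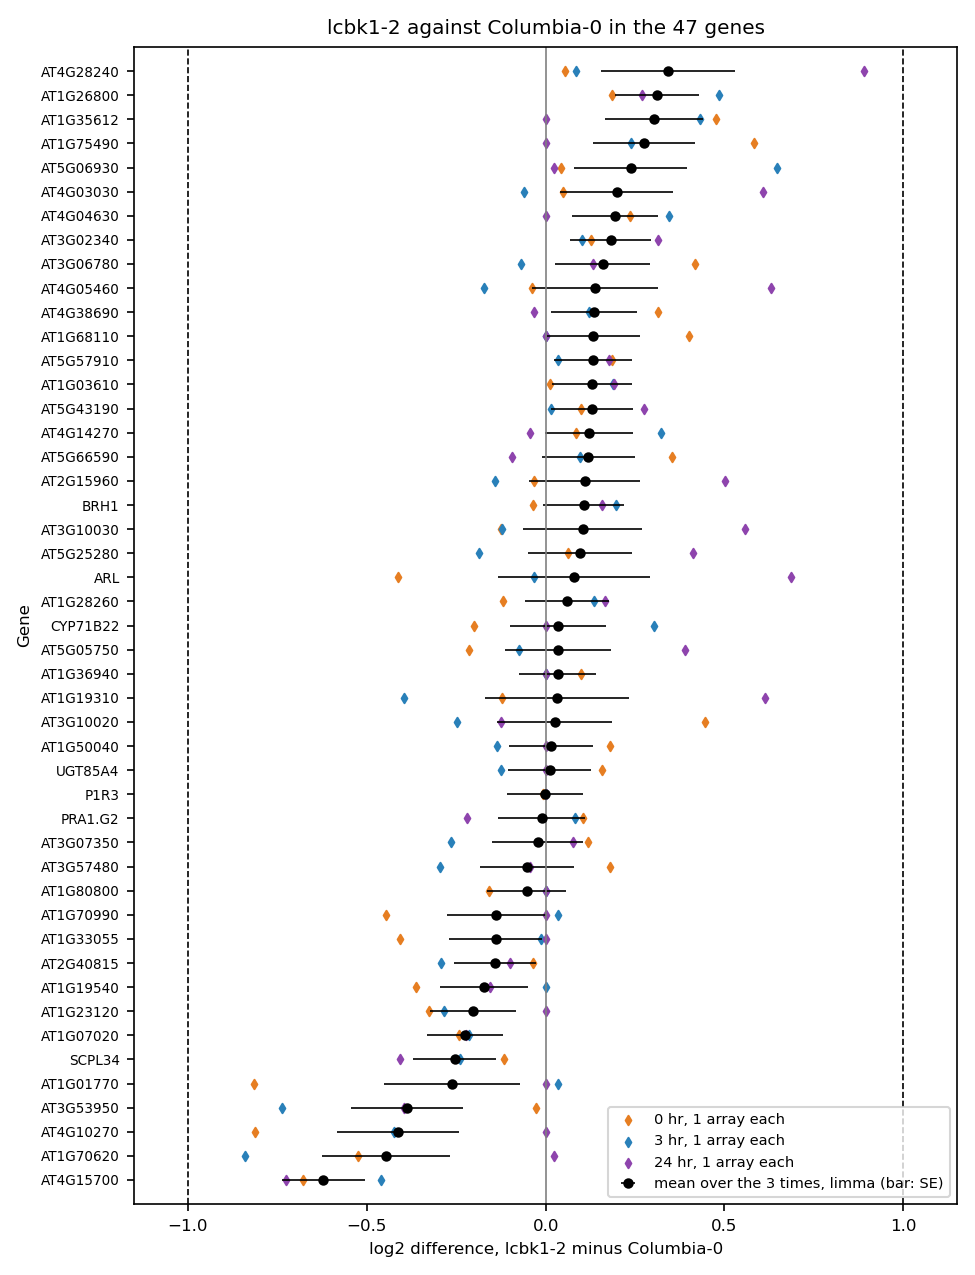
Log2 difference of lcbk1-2 minus Columbia-0 for the 47 genes: black points and bars are the limma estimate over the 3 times and its SE, and coloured diamonds are the single differences at 0, 3 and 24 hr, 1 array each. All diamonds lie between the dashed lines at -1 and 1, and AT4G15700 lies lowest.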

How the data were processed

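Each deposited value is an intensity, made with MAS5 per the submitters' processing notes. The version and settings of MAS5 were not given in the labels. Each target was made from 6 µg RNA, as the labels' protocols state. From the values, the intensity is linear and its 2% trimmed mean is 500.1 on each array, so levels are relative within an array's total.

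Of 22810 probe sets, 64 controls were left out. Names came from the platform annotation supplied and the RefSeq table of assembly TAIR10.1: 13513 probe sets had 1 gene (13436 matched the table), 503 several and 8730 none. The probe set with the highest mean stood for a gene, leaving 22588 features. Values under 66 were set to 66, with no further scaling before log2. Features above 66 on at least 2 arrays were tested (15653) with limma 3.58.1 in R 4.3.3 (lmFit and eBayes, genotype plus time, two-sided, Benjamini-Hochberg, threshold 0.05; prior SD 0.158). The fit was also run on simulated data with normal errors and genotype differences of known size, equal at all times. Those data held no genotype by time difference, so the run does not show how the fit handles one. Bounds written as at least use the floor of 66.

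Members, the 9 lists of 190 loci and the role groups were chosen with earlier results of these data known. The heat shock, light harvesting, clock, and nitrate and iron lists had 2, 3, 1 and 1 tested genes. Of these, 0 were at least 2-fold lower in both genotypes at 3 hr or at 24 hr, beside 1.74% and 9.4% of all features. The gibberellin and brassinosteroid list had 0 tested. Named genes were the list members, the members with the deepest changes at 3 hr and 24 hr, the largest further changes, the brightest, those nearest a threshold and those with the largest genotype differences; others were named after their values were seen. No sequences were used here.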

Additional observations from a re-analysis of the deposited data

How the results depend on the processing

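The count of features called for lcbk1-2 against Columbia-0 was 2 with quantile normalization, median scaling or the mean over probe sets, and 0 with no floor, with a floor at the 20th or 50th percentile, with no filter, or without the arrays of 0, 3 or 24 hr (limma; 852 to 1482 at an unadjusted p under 0.05). The count of the 47 genes called was 0 in each of these fits. The number of genes that meet the rule was 97 with a threshold of 0.8 for the 2 changes, 23 with 1.2, 126 in lcbk1-2 alone and 120 in Columbia-0 alone. It was 64 with no floor, 50 and 45 with floors at the 20th and 50th percentile, 55 with quantile normalization and 51 with median scaling, of which 34, 36, 26, 41 and 38 are among the 47. The median change at 3 hr was -1.10 in lcbk1-2 and -1.10 in Columbia-0 when the floor was the 50th percentile. The median at 24 hr was -1.91 in lcbk1-2 and -2.06 in Columbia-0 with no floor or one at the 20th percentile, -1.17 and -1.25 at the 50th, and -1.52 and -1.60 with median scaling. That scaling put the 24 hr median over all tested features at 0.05, beside -0.10 without it. The median from 3 hr to 24 hr was -0.28 in lcbk1-2 with no floor or one at the 20th percentile, and in Columbia-0 -0.48 with no floor and 0 at the 50th percentile. A higher floor limits a change by its construction. AT4G15700 stayed lower in lcbk1-2 in the 9 alternative fits that tested it, at -1.23 to -0.57 (adjusted p 0.349 to 0.845, limma). Dim genes rest on signals near the floor. With time as a term, the fit compares the genotypes within each time; each group holds 1 array, so there are no replicates to pair.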
